A study of Mus musculus with 6 samples.

Results

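The genes described are the heat-shock proteins and their J-domain partners as measured in mouse E14 embryonic stem cells given shRNAs against Tip5, set against cells given a control shRNA. They were chosen by symbol, as genes starting with Dnaja, Dnajb, Dnajc, Hspa, Hspb, Hspd, Hspe, Hsph or Hsp90, with Dnajc5g and Hspa5 left out. The array held 62 of them on 88 probes, and 47 of the 62 genes were tested, among 9015 in all, because a probe of theirs was above background (detection p-value under 0.05) on 3 or more arrays. E14 is an established mouse embryonic stem cell line, grown here on gelatin with serum and LIF. The 3 Tip5-shRNA samples were E14 cells electroporated with a combination of pSuper vectors carrying Tip5 shRNAs with different selection markers, and the 3 control-shRNA samples were E14 cells, labelled wild type, electroporated with a non-specific shRNA in pSuper. Both groups were then selected with antibiotics, and total RNA was harvested at passage 3 following each transfection. The labels name no cloning step, so each sample is taken as a pool of selected cells, and Tip5 was lowered and not deleted. The labels give separate transfections of 1 cell line, so the p-values measure the spread between transfections of that line.

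Heat-shock proteins are chaperones that bind unfolded proteins and let them fold, move across membranes or be degraded. An Hsp70 binds and releases a client through a cycle of ATP use. J-domain proteins (the DNAJ genes) bring the client and start that cycle, and nucleotide exchange factors, among them the Hsp110 proteins, end it. Hsp90 takes over many clients from Hsp70, the Hsp60 and Hsp10 pair forms the folding chamber of mitochondria, and the small heat-shock proteins hold unfolded proteins without ATP. Part of the family is made all the time, and part is raised by stress through heat shock factor 1, which binds heat shock elements, arrays of the unit GAA and its inverse TTC. In embryonic stem cells chaperone levels are known to be high.

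The 4 stretches of promoter printed here show where such elements lie in members whose levels are described later. The motif searched was GAANNTTCNNGAA on both strands, which is the element of 3 units, in the RefSeq promoter windows of assembly GRCm38.p6, each reaching from 250 bases before to 50 bases after a start. Capitals mark the match of 3 units in Hsph1, Hspe1 and Dnajb6, and in Hspb1 the shorter form GAANNTTC of 2 units. The stretch of Hsph1 lies at chr5:149636286-149636405 on the minus strand and its match begins 16 bases after the start. That of Hspe1 lies at chr1:55088028-55088147 on the plus strand, and holds overlapping matches that begin 89 and 84 bases before the start. That of Dnajb6 lies at chr5:29735778-29735897 on the plus strand with a match 46 bases before the start, and that of Hspb1 at chr5:135887799-135887918 on the plus strand with 2-unit matches 117 and 97 bases before the start.
Hsph1: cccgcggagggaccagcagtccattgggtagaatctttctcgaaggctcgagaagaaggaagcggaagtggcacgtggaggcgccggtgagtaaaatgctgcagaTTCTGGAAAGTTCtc
Hspe1: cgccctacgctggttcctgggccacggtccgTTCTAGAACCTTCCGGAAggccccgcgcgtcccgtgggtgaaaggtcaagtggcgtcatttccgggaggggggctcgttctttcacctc
Dnajb6: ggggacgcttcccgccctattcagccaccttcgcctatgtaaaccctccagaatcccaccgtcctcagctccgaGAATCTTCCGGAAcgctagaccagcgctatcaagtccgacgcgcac
Hspb1: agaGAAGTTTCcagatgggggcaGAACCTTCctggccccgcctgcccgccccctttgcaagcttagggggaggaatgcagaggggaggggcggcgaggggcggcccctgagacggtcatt

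The tables held a window for 36 of the 47 tested members. Of these, 4 (11.1%) had the 3-unit motif, namely Dnajb6, Hspd1, Hspe1 and Hsph1, against 179 of all 27025 genes with a window (0.662%). Hspd1 and Hspe1 stand head to head, and their windows share 285 of 300 bases, so they share the same matches. Either 2-unit form (GAANNTTC or TTCNNGAA, both contained in the longer motif) stood in 33.3% of the tested members with a window and in 17.0% of all genes with one. Among the heat-inducible members, a list of known heat shock factor 1 targets, 3 of the 7 tested ones with a window (42.9%) held the 3-unit motif. The windows of Dnajb1 held neither form. A match is a description of the letters in the window and not a binding site.

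The libraries were first checked against their labels. Baz2a, which encodes Tip5, read 5.21, 4.74 and 5.13 in the Tip5-shRNA arrays, against 6.42, 7.51 and 5.99 in the control arrays (log2 levels, replicates 1 to 3). All 3 Tip5-shRNA arrays lay below all 3 control arrays, and the difference of -1.62 ± 0.39 (SE) left 32.6% of the control level, with an adjusted p of 0.203 in limma and an exact two-sided permutation p of 0.1, the smallest that 3 against 3 arrays allow. The probe was above background on 2 of 3 Tip5-shRNA arrays. Raw signal medians were 129, 127 and 219 in the Tip5-shRNA arrays and 134, 125 and 184 in the control arrays, so that the replicate 3 arrays were the brightest in both groups before normalization. All 10 embryonic stem cell markers were tested, and their summed level lay between 71540 and 74907 in Tip5-shRNA cells and between 73303 and 74287 in control cells. This linear sum is weighted towards bright markers such as Dppa5a, and single markers moved more. Against replicates 1 and 2, Sox2, Fgf4, Nanog and Klf4 stood at -1.31, -1.46, 0.92 and 1.07 in Tip5-shRNA replicate 3. In control replicate 3 they stood at -0.66, -0.60, 1.07 and 0.45. Between the groups 3 markers were above and 7 below 0, from -0.52 (Tdgf1) to 0.25 (Pou5f1), and 0 passed. Of 13 endoderm markers 7 were tested, and their summed level was 3313, 3139 and 20801 in Tip5-shRNA cells, against 4735, 5377 and 6429 in control cells. Gata4, Sox17, Foxa2, Sox7, Lamb1 and Afp were not detected on enough arrays to be tested. Of 8 fibroblast markers only Thy1 was tested (116 to 169 in Tip5-shRNA cells, 230 to 400 in control cells, linear level), and the collagen genes were not. In bulk RNA, fewer cells of a type and less RNA per cell cannot be told apart.

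No chaperone gene passed the test between Tip5-shRNA and control-shRNA cells: 0 of 47 members had an adjusted p under 0.05 in limma, where 7 of 9015 genes (0.0776%) did. With the replicate number as a block, 0 members passed, against 176 of 9015 genes (1.95%). At an unadjusted p under 0.05 there were 3 members (6.38%), of which Dnajc30 and Dnajb9 were higher and Dnajb13 was lower in Tip5-shRNA cells, against 11.2% of all genes. With the block the same limit took 6 members (12.8%; Dnajc30, Dnajb9, Hsph1 and Dnajb1 higher, Dnajb13 and Dnajc5b lower) and 22.8% of all genes. With replicates 1 and 2 only, 0 members passed, against 4.75% of all genes. With array weights 4 members passed (8.51%, beside 9.96% of all genes), and with replicate 3 as a batch 1 did (2.13%, beside 4.41%). These shares of members lie below the background or near it, and nothing is read from them about the family.

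The differences were small and lay on both sides of 0. The median log2 difference over the 47 members was -0.016 (21 above and 26 below 0), beside 0.022 over all genes, and the medians within replicate pairs 1, 2 and 3 were 0.01, 0.02 and -0.01. The median size of the difference was 0.17 for members and 0.21 for all genes. For 36 members it was within 0.25, and for 4 it was over 0.5, namely Dnajc30, Dnajb9, Hsph1 and Dnajb13. The 95% intervals of the fit without the block reached 0.51 to either side of the difference in the median member, and those with the block 0.35. Without the block the interval stayed within 1 log2 unit of 0, a 2-fold difference, for 37 members and within 1.5-fold for 13. With the block these numbers were 45 and 28. Leaving out each array in turn kept the sign of 20 members and turned it for 27, all of which lay within 1 SE of 0.

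**Figure D1:**
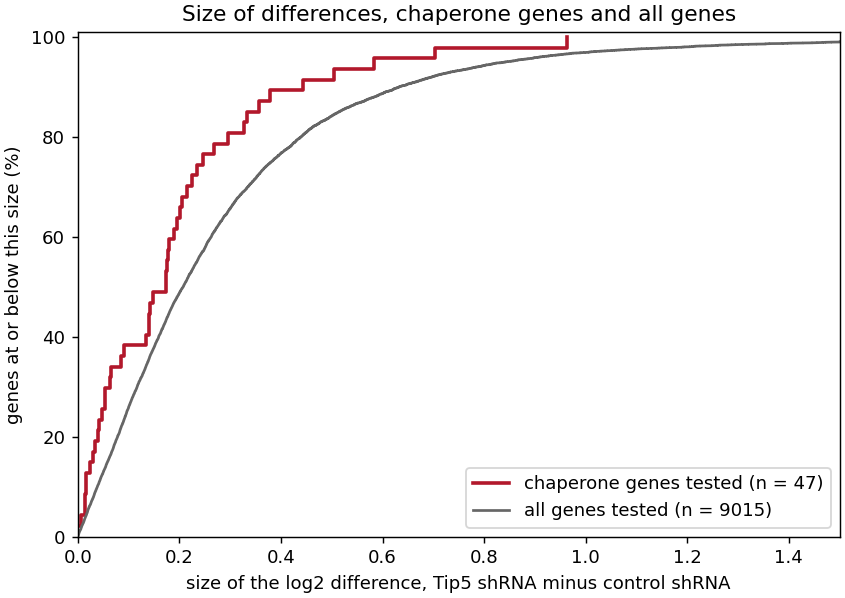
Share of genes (vertical axis, percent) whose log2 difference between Tip5-shRNA and control-shRNA cells is at or below the size on the horizontal axis, for the 47 tested chaperone genes (red) and all 9015 tested genes (grey). The red curve lies to the left of the grey one over most of its length, with median sizes of 0.17 and 0.21, and ends at 0.96, the size for Dnajb13, while the horizontal axis stops short of the largest differences among all genes.

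The measured differences of the tested Hsp70 genes, which encode the core of the system, were small. Of 9 Hsp70 genes on the array, Hspa5 not counted, 4 were tested, with differences between -0.02 and 0.09 and a median of 0.02. Hspa8, the constitutive Hsp70 of the cytosol, read 14.74, 14.75 and 14.95 in Tip5-shRNA cells and 14.73, 14.76 and 14.99 in control cells. Its difference was -0.02 ± 0.18 (SE), with a 95% interval from -0.43 to 0.40, and its other probe gave 0.06. Hspa9, the Hsp70 of mitochondria, read 14.04, 14.05 and 13.78 in Tip5-shRNA cells and 14.004, 14.04 and 13.88 in control cells, a difference of -0.02 ± 0.17 (SE), and its other probe gave -0.14. In both genes the groups overlapped, and on the probes that stand for them the replicate 3 arrays set most of the spread. On the other Hspa8 probe, replicate 3 was the lowest array in Tip5-shRNA cells (14.39). In control cells it lay between replicates 1 and 2 (14.43).

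Hspa1a, the Hsp70 that heat raises most, read 5.18, 5.88 and 6.64 in Tip5-shRNA cells and 5.52, 5.66 and 6.24 in control cells. The groups overlapped and the replicate 3 array was the highest of each, and the difference of 0.09 had a 95% interval from -0.81 to 0.99. The probe was above background on 3 arrays of each group but near it, which limits what this difference can show. Hspa2, a form best known from the testis, read 9.61, 9.54 and 9.57 in Tip5-shRNA cells and 9.64, 9.49 and 9.39 in control cells, a difference of 0.06 ± 0.17 (SE). Its second probe gave 0.05.

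The Hsp110 proteins serve Hsp70 as exchange factors, and 2 of the 3 genes were tested. Hsph1 read 11.13, 11.14 and 11.91 in Tip5-shRNA cells, against 10.58, 10.67 and 11.41 in control cells. Within each replicate number the Tip5-shRNA array was higher, by 0.55, 0.47 and 0.50, while the groups as a whole overlapped because control replicate 3 lay above Tip5-shRNA replicates 1 and 2. Hsph1 thus had a difference of 0.50 ± 0.31 (SE) at an adjusted p of 0.688 in limma, and with the replicate block an SE of 0.13 and an adjusted p of 0.0989. It was 0.25 without Tip5-shRNA replicate 3 and 0.77 without control replicate 3. Hspa4 read 8.93, 9.09 and 9.27 in Tip5-shRNA cells and 8.68, 9.42 and 9.31 in control cells, a difference of -0.04 whose sign turned under some scalings.

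The J-domain proteins of class A, close relatives of the bacterial DnaJ, had 3 tested genes, all with small negative differences. Dnaja2 had 8.82, 8.65 and 8.72 in Tip5-shRNA cells, against 8.88, 9.06 and 8.82 in control cells. Its groups were apart by less than 0.01 (difference -0.19 ± 0.17 SE, adjusted p 0.820 in limma), and its dimmer probe gave -0.58 ± 0.26 (SE). Dnaja3, a J-domain protein of mitochondria, read 11.65, 11.79 and 11.88 in Tip5-shRNA cells and 11.67, 11.87 and 11.94 in control cells. Its probes gave -0.05 and -0.25, and the sign of the first turned under 1 of 5 scalings. Dnaja4 was above background on 2 arrays of each group, with a difference of -0.14 and a 95% interval from -1.21 to 0.93.

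Class B, of which 8 of 11 genes were tested, held larger differences in both directions. Dnajb9, an endoplasmic reticulum J-domain protein that the unfolded protein response induces, read 8.50, 8.67 and 8.51 in Tip5-shRNA cells, against 8.08, 8.03 and 7.83 in control cells. All 3 Tip5-shRNA arrays lay above all 3 control arrays, and the difference was 0.58 ± 0.17 (SE), 1.498-fold, with an adjusted p of 0.274 in limma and 0.0847 with the replicate block. Dnajb1, the main heat-inducible partner of Hsp70, read 12.15, 12.27 and 12.25 in Tip5-shRNA cells, against 11.82, 12.02 and 11.76 in control cells. Its groups were also apart, by a smaller difference of 0.36 ± 0.17 (SE) at an adjusted p of 0.534 in limma and 0.193 with the block. By level over the 6 arrays, the members most like Dnajb1 were Dnajb9 (Pearson's r 0.93), Dnajc30 (0.70) and Dnajc5 (0.65), as a description over 6 arrays of 2 groups.

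Dnajb13, known as a part of the sperm flagellum, had the largest negative difference among the members. It read 5.78, 6.33 and 7.01 in Tip5-shRNA cells, against 7.27, 7.72 and 7.01 in control cells. The gap lay in replicates 1 and 2 (-1.49 and -1.39), while in replicate 3 the arrays were nearly level (-0.0044). The difference was -0.96 ± 0.34 (SE), with an adjusted p of 0.375 in limma and 0.149 with the block.

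Dnajb6, which holds back protein aggregation, has 2 probes annotated to different RefSeq transcripts. The probe that stands for the gene read 11.45, 11.60 and 10.61 in Tip5-shRNA cells and 11.10, 11.20 and 10.65 in control cells, and the other read 10.27, 10.03 and 11.28 in Tip5-shRNA cells and 9.9996, 9.76 and 11.11 in control cells. The group differences were alike, at 0.24 for both probes (0.05 to 0.54 for the first with 1 array left out), but replicate 3 was low in both groups on the first probe and high in both on the second. The other members of class B, Dnajb2, Dnajb3, Dnajb4 and Dnajb12, differed by -0.23 to 0.17 with overlapping groups, and Dnajb3 was above background on 1 of 3 control arrays.

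Class C is the largest and most varied, and 20 of its 23 genes were tested, with a median difference of -0.03. Its largest difference was that of Dnajc30, a J-domain protein of the mitochondrial inner membrane. It read 10.61, 10.34 and 10.50 in Tip5-shRNA cells, against 9.73, 9.62 and 9.9996 in control cells. The groups were apart, and the difference of 0.70 ± 0.19 (SE), 1.63-fold, had an adjusted p of 0.237 in limma and 0.0688 with the block. Dnajc19, which belongs to the motor that pulls proteins into mitochondria, was lower in every Tip5-shRNA array, at 12.59, 12.44 and 12.72, against 12.92, 12.90 and 12.92 in control cells. That difference was -0.33 ± 0.17 (SE), with an adjusted p of 0.581 in limma and 0.226 with the block. Dnajc15, a relative of Dnajc19 at the same membrane, read 11.35, 11.20 and 11.20 in Tip5-shRNA cells and 11.28, 11.16 and 11.28 in control cells, a difference of 0.01.

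Dnajc2, a J-domain protein bound to ribosomes, read 11.67, 11.75 and 11.67 in Tip5-shRNA cells, against 11.89, 11.84 and 12.09 in control cells. Its groups were apart with a difference of -0.25 ± 0.17 (SE) and an adjusted p of 0.726 in limma, and its other probe gave -0.12 with overlapping groups. Dnajc3 and Dnajc10, which work in the endoplasmic reticulum as Dnajb9 does, differed by 0.01 and -0.03. Dnajc16 read 8.63, 8.93 and 9.15 in Tip5-shRNA cells and 9.24, 9.14 and 9.23 in control cells, a difference of -0.30 with overlapping groups.

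The vesicle proteins of class C had overlapping groups. Dnajc5, a chaperone of synaptic vesicles, read 9.94, 10.09 and 9.73 in Tip5-shRNA cells and 9.84, 9.90 and 9.44 in control cells, a difference of 0.19 ± 0.20 (SE). Its testis relative Dnajc5b, above background on 1 Tip5-shRNA and 2 control arrays, had -0.38 ± 0.24 (SE) and an adjusted p of 0.703 in limma. Dnajc6, the auxilin that uncoats clathrin vesicles, read 10.80, 11.18 and 10.18 in Tip5-shRNA cells and 11.13, 11.21 and 10.62 in control cells. Its difference was -0.27 (-0.50 to 0.00 with 1 array left out), its second probe gave -0.06, and its groups overlapped.

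Dnajc18 read 6.19, 5.63 and 6.21 in Tip5-shRNA cells and 6.08, 5.48 and 5.83 in control cells, a difference of 0.22 ± 0.25 (SE). Dnajc28 was above background on 2 arrays of each group and differed by 0.20 ± 0.35 (SE). The splicing-related Dnajc8 and Dnajc17, the diphthamide synthesis protein Dnajc24 and Dnajc4, Dnajc7, Dnajc11, Dnajc12 and Dnajc27 differed by -0.20 to 0.15, all with overlapping groups.

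**Figure D2:**
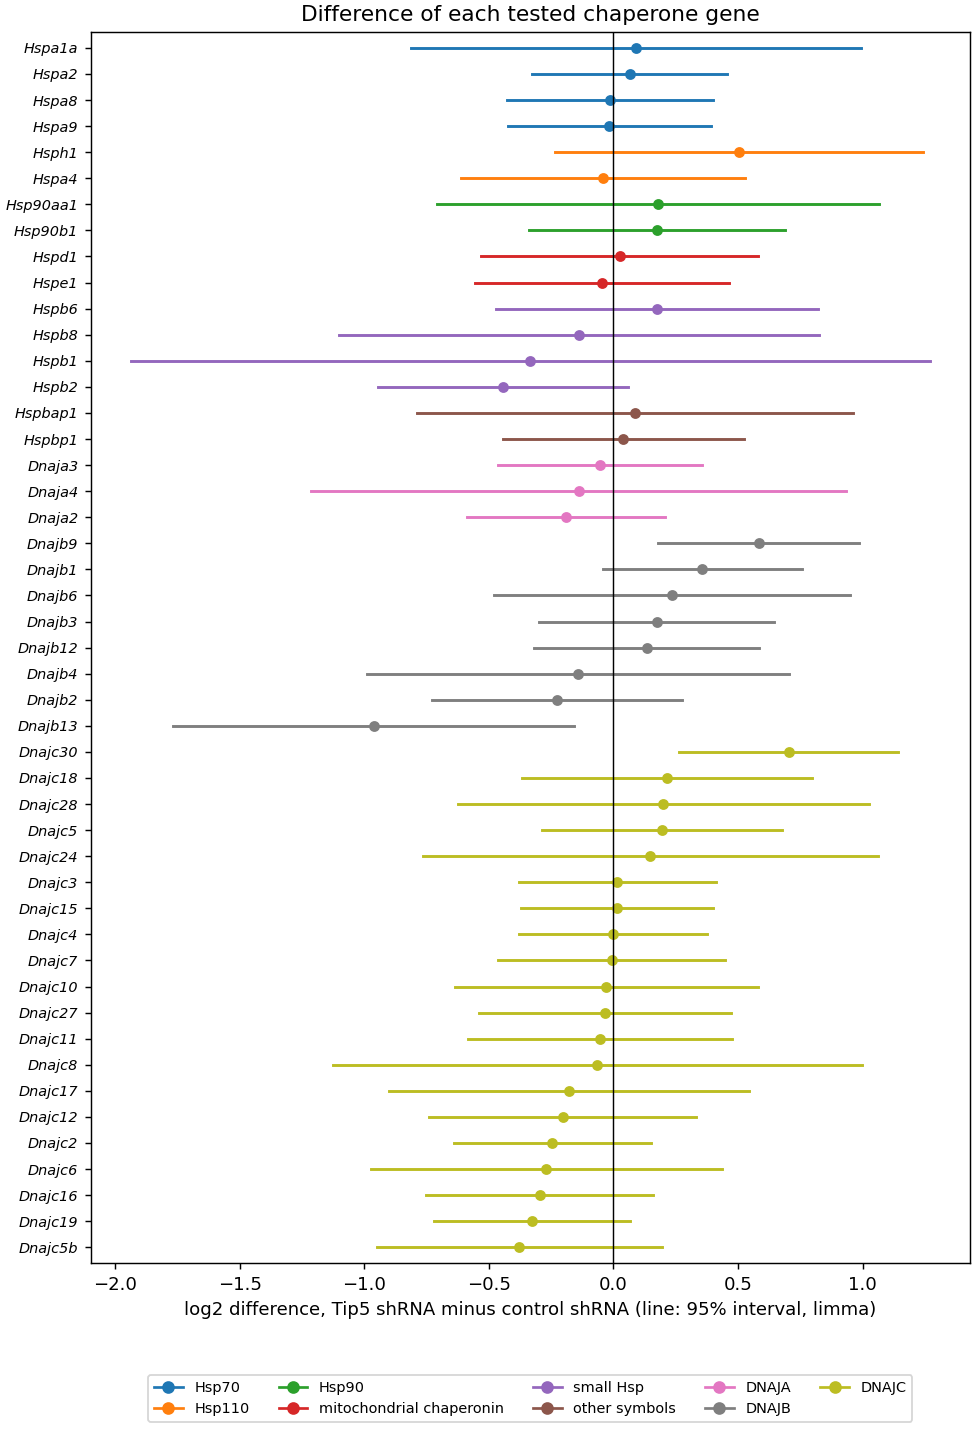
Log2 difference (horizontal axis, Tip5 shRNA minus control shRNA) of each of the 47 tested chaperone genes, with its 95% interval from limma as a line and the class as colour. The intervals of 3 genes leave out 0: those of Dnajc30 and Dnajb9 lie above it and that of Dnajb13 lies below it.

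Hsp90 and the mitochondrial chaperonin were measured by 2 genes each. Hsp90aa1, the heat-inducible Hsp90 of the cytosol, read 7.06, 6.74 and 7.74 in Tip5-shRNA cells and 6.54, 6.75 and 7.71 in control cells. Replicate 3 was highest in both groups, and the difference of 0.18 had a 95% interval from -0.71 to 1.06. Hsp90b1, the Hsp90 of the endoplasmic reticulum, read 11.81, 11.84 and 12.07 in Tip5-shRNA cells and 11.67, 11.44 and 12.08 in control cells, a difference of 0.17 ± 0.22 (SE).

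Hspd1, the Hsp60 chamber, read 12.47, 12.45 and 12.95 in Tip5-shRNA cells and 12.53, 12.33 and 12.93 in control cells. Its lid Hspe1 read 10.39, 10.08 and 10.70 in Tip5-shRNA cells and 10.41, 10.30 and 10.61 in control cells. The differences were 0.02 ± 0.24 and -0.05 ± 0.22 (SE), and replicate 3 was the highest array of each group in both. The second Hspd1 probe gave -0.08, and on it replicate 3 was the lowest array in Tip5-shRNA cells and the highest in control cells.

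Of the small heat-shock proteins 4 of 6 genes were tested, and Hspb1 and Hspb8 among them spread widely between replicates. Hspb1 (Hsp27 in human), which binds unfolded proteins and actin, read 9.97, 10.01 and 12.27 in Tip5-shRNA cells and 10.66, 10.55 and 12.04 in control cells. Replicate 3 stood 2.27 above the mean of replicates 1 and 2 in Tip5-shRNA cells and 1.44 above it in control cells, and the group difference of -0.33 had a 95% interval from -1.94 to 1.27. In replicates 1 and 2 the Tip5-shRNA array was lower (differences of -0.69 and -0.54), and in replicate 3 it was higher by 0.22. Hspb8, which works with Bag3 in autophagy, moved the other way in replicate 3, with 8.52, 8.72 and 7.5 in Tip5-shRNA cells and 8.53, 8.90 and 7.73 in control cells. Its group difference was -0.14.

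Hspb2, a muscle form near background, read 5.79, 5.48 and 6.12 in Tip5-shRNA cells and 6.28, 6.31 and 6.12 in control cells, a difference of -0.44 ± 0.21 (SE) with an adjusted p of 0.544 in limma. As in Dnajb13, the gap lay in replicates 1 and 2 (-0.49 and -0.84) and replicate 3 was level. Hspb6 read 10.53, 10.40 and 9.56 in Tip5-shRNA cells and 9.999, 10.01 and 9.96 in control cells, so that Tip5-shRNA replicates 1 and 2 lay above the control arrays and Tip5-shRNA replicate 3 lay below them. The Hsp70 exchange factor Hspbp1 and the Hspb1 partner Hspbap1 differed by 0.04 and 0.09.

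**Figure D3:**
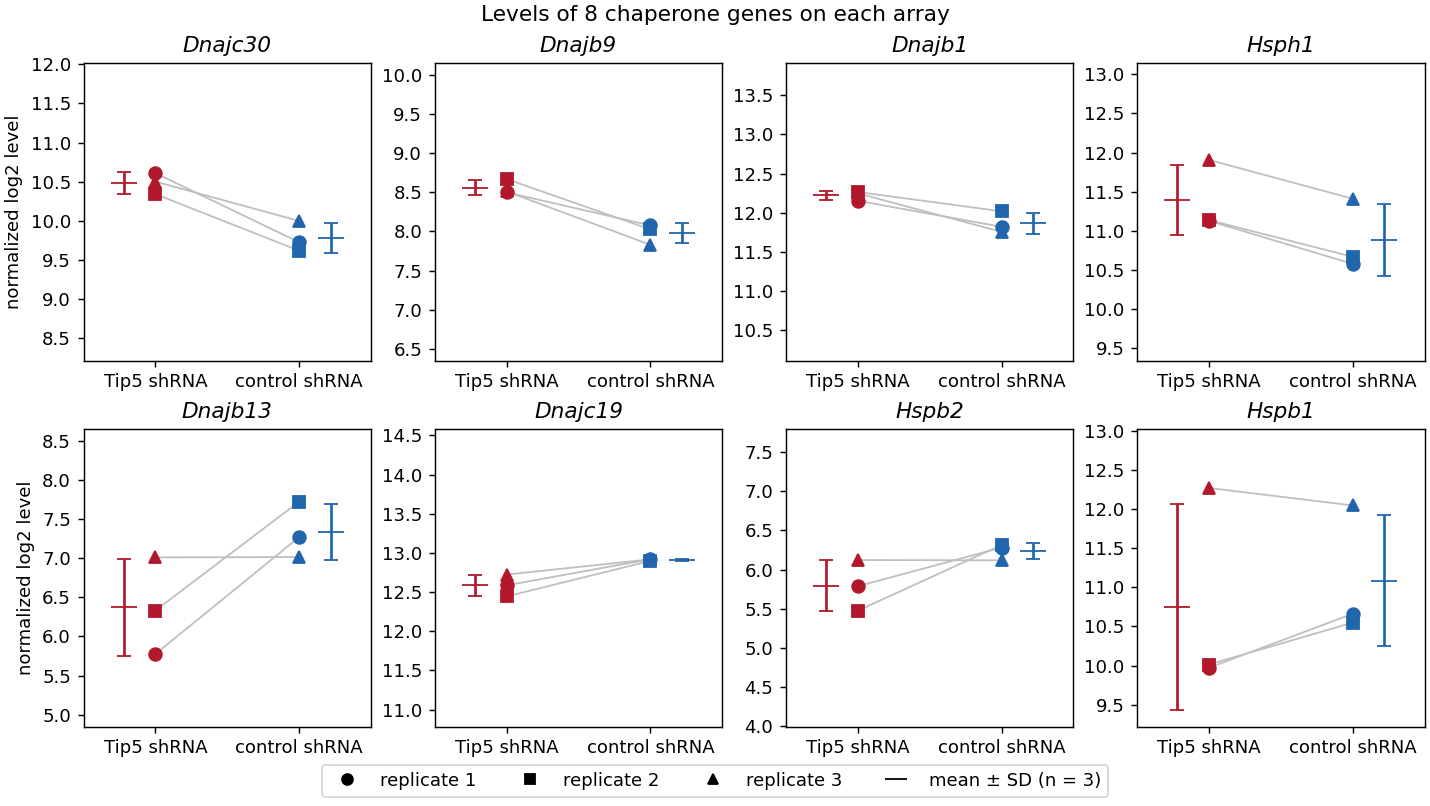
Normalized log2 level (vertical axis, each panel spanning the same range of log2 units) of 8 chaperone genes on each array, Tip5 shRNA in red and control shRNA in blue, with lines joining the same replicate number and bars for the mean ± SD of 3 arrays. Dnajc30, Dnajb9 and Dnajb1 lie higher in all 3 Tip5-shRNA arrays, Hsph1 is higher within each replicate number, and for Dnajb13 and Hspb2 the lines of replicate 3 are flat.

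Counts of groups that do not overlap gave the same picture as the test. All Tip5-shRNA arrays lay above all control arrays for 3 members (6.38%, Dnajb1, Dnajb9 and Dnajc30) and below them for 4 (8.51%, Dnaja2, Dnajb13, Dnajc19 and Dnajc2), against 8.96% and 8.0% of all genes. The sign was the same in 3 replicate pairs for 10 members on the higher side and 10 on the lower (21.3% each), against 25.0% and 21.6% of all genes. In the remaining 27 members the pairs had mixed signs.

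The heat-inducible members lay on both sides of 0. Of 11 listed, 10 were on the array and 9 were tested, and 0 passed in either fit. Their median difference was 0.02, with 5 above and 4 below 0, from -0.33 for Hspb1 to 0.50 for Hsph1. The 4 tested members with the 3-unit motif in their promoter window had a median of 0.13 and ran from -0.05 to 0.50, and the 32 with a window and no such motif had -0.018 and ran from -0.96 to 0.58. Hspd1 and Hspe1, which share their matches, are 2 of the 4.

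Replicate 3 stood apart in both groups for many members. In 27 of the 47 members (57.4%) both replicate 3 arrays lay outside the range of the other 4 arrays, on the higher side in 15 and on the lower in 12. The share was 46.9% over all genes. Each gene stands here by 1 probe, and 10 members had several tested probes. Of these, the second probes of Dnaja3, Dnajb6, Dnajc2, Dnajc6, Hspa8 and Hspd1 placed replicate 3 differently from the first, so the count depends on the probe. In 31 members (66.0%) the shift of replicate 3 against replicates 1 and 2 was larger than the group difference in both groups, against 54.0% of all genes. The shift exceeded 0.5 in both groups with the same sign in 14 members, a count not made over all genes. The median size of the shift was 0.37 in Tip5-shRNA and 0.33 in control cells for members. Over all genes it was 0.41 and 0.37, so nothing is read from the 14 about the family.

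The members that were high in replicate 3 came from several classes. Beside Hspb1, Dnajc8 stood 1.14 higher in Tip5-shRNA and 1.27 higher in control replicate 3, Hsp90aa1 0.84 and 1.06, Hspa1a 1.11 and 0.65, and Hsph1 0.77 and 0.79. In Hspa1a, Hspa8, Hsph1, Hsp90aa1, Hspd1, Hspe1 and Hspb1, all heat-inducible, both replicate 3 arrays lay above those of replicates 1 and 2. Of the other tested heat-inducible members, Hspb8 had both below them and Dnajb1 had neither. The median shift over the heat-inducible list was 0.49 in Tip5-shRNA and 0.49 in control cells, against 0.06 and 0.01 over all members. Some members outside the list shifted by similar amounts, with Dnaja4 at 1.15 and 0.81, Dnajc24 at 0.98 and 0.92, and Hspbap1 at 0.86 and 1.05. The heat-inducible Dnajb1 stood at 0.04 and -0.16. On the low side, Hspb8 stood at -1.12 in Tip5-shRNA and -0.99 in control replicate 3, and Dnajb4 at -1.20 and -0.52. Dnajb13 stood at 0.96 in Tip5-shRNA and -0.48 in control replicate 3, in opposite directions. Over the 6 arrays the members most like Hsph1 were Hsp90aa1 (Pearson's r 0.89), Hsp90b1 (0.88) and Hspbap1 (0.85), all high in replicate 3 of both groups. The replicate 3 arrays were also the brightest before normalization, and the summed endoderm marker level was 20801 in Tip5-shRNA and 6429 in control replicate 3. The part of either in these shifts was not tested.

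**Figure D4:**
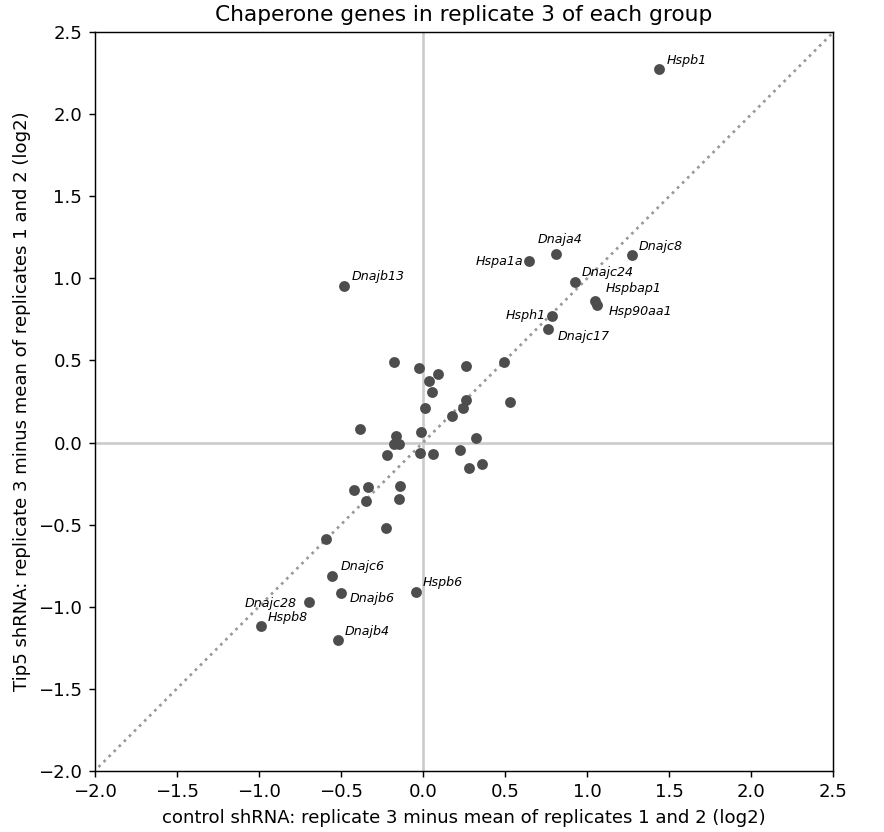
Level in replicate 3 minus the mean of replicates 1 and 2 (log2), in Tip5-shRNA cells (vertical axis) and control-shRNA cells (horizontal axis), for each of the 47 tested chaperone genes, with the dotted line marking equal shifts and names where a shift exceeds 0.75. Hspb1 is at the upper right (2.27 and 1.44), Hspb8 at the lower left (-1.12 and -0.99), and Dnajb13 lies off the line (0.96 and -0.48).

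The rest of the chaperone network was read from 8 lists of 77 genes that are not members, of which 67 were on the array and 62 were tested. In both fits 0 of the 62 passed, while 2 (3.23%) had an unadjusted p under 0.05 in the limma fit of 2 groups, against 11.2% of all genes. With the block there were 5 (8.06%; Calr, Cct6b, Gak, Htra2 and Unc45a), against 22.8%. There were 35 differences above and 27 below 0, with a median of 0.02, the same as over all genes. Of the 62 list genes, the groups were apart on the higher side for 4 (6.45%), against 8.96% of all genes. On the lower side they were apart for 0, against 8.0%. Of the 4, Hsf4 was above background on 0 control arrays and is not read, and 3 (4.84% of the 62) were above background in both groups. The 3 were Htra2, Gak and Pdia3, the last named after its values were seen.

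Of the heat shock factors, Hsf2 and Hsf4 were tested and dim, and Hsf1 was not analysed here. Hsf2 read 4.84, 5.62 and 6.02 in Tip5-shRNA cells and 5.89, 4.83 and 6.35 in control cells. Hsf4 was above background on 3 Tip5-shRNA arrays and on 0 control arrays, and so passed the filter through the Tip5-shRNA arrays alone. Its measured means were 5.12 in Tip5-shRNA and 4.85 in control cells (adjusted p 0.703 in limma), and no direction is read from them. Hsbp1, a binding partner of heat shock factor 1, differed by 0.12.

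The lists of exchange factors, Hsp90 co-chaperones and prefoldin genes had medians within 0.25 of 0. The 10 exchange factors had a median of -0.01 and ran from -0.22 (Sil1) to 0.27 (Bag5). The 19 tested Hsp90 co-chaperones had a median of 0.00 and ran from -0.29 (St13) to 0.34 (Unc45a). The 4 tested prefoldin genes had a median of -0.11 and ran from -0.34 (Vbp1) to 0.25 (Pfdn1).

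Of the 9 genes of the cytosolic chaperonin TRiC, 7 were above 0, with a median of 0.05 and Tcp1 the highest at 0.12. The lowest was Cct6b, the testis form of a TRiC subunit, which read 4.64, 4.77 and 6.22 in Tip5-shRNA cells, against 6.29, 6.19 and 6.78 in control cells. It was above background on 1 of 3 Tip5-shRNA arrays, and its difference of -1.21 ± 0.43 (SE) had an adjusted p of 0.373 in limma and 0.0622 with the block. Its groups overlapped through replicate 3, as those of Hspb2 did.

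In the endoplasmic reticulum, 9 folding genes had a median of 0.09, from -0.32 for the unfolded protein response factor Xbp1 to 0.41 for calreticulin (Calr). Calr read 11.24, 11.40 and 10.12 in Tip5-shRNA cells and 10.85, 11.05 and 9.65 in control cells, higher in each pair with replicate 3 low in both groups (adjusted p 0.883 in limma and 0.148 with the block). Xbp1 read 11.33, 11.58 and 12.05 in Tip5-shRNA cells and 11.73, 11.95 and 12.23 in control cells, lower in each pair. Calr and Xbp1 are the extremes of a list with 5 genes above and 4 below 0, among them Sel1l at -0.32, Creld2 at -0.05 and Herpud1 at 0.16. Dnajb9, which the unfolded protein response induces, differed by 0.58. Calr, Xbp1 and Dnajb9 did not pass in either fit, and a change of the response was not tested.

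Among 6 mitochondrial proteases and chaperones the median was -0.02. Htra2, a protease of the intermembrane space, read 7.92, 7.66 and 7.43 in Tip5-shRNA cells, against 7.12, 7.25 and 6.51 in control cells. Its groups were apart, with a difference of 0.71 ± 0.25 (SE) and an adjusted p of 0.378 in limma and 0.0786 with the block, while Clpx, which unfolds proteins for degradation, had -0.19. Of the J-domain proteins with other symbols, Gak, the second auxilin, read 12.23, 12.15 and 12.02 in Tip5-shRNA cells and 11.83, 11.90 and 11.62 in control cells, with groups apart by a difference of 0.35 ± 0.17 (SE) and an adjusted p of 0.563 in limma. Sec63 of the endoplasmic reticulum differed by 0.23, and the 2 tested genes of this list had a median of 0.29.

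The 15 members that were not tested stood on 16 probes. Of these genes 12 were above background on 0 arrays: Dnaja1, Dnajb7, Dnajb8, Dnajc1, Dnajc9, Hspa12a, Hspa12b, Hspa13, Hspa14, Hspa1l, Hspb3 and Hspb7. Dnajb5, Dnajc14 and Hspa4l were above it on 1 array each, a Tip5-shRNA array. Dnaja1 is a partner of cytosolic Hsp70 found in most cells, and a probe below background does not show that its transcript is absent. Of the tested members 43 were above background on 6 arrays, and a further 15 probes of tested genes fell below the filter. Hspa1b, Hsp90ab1 and Dnajb11 were not analysed here.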

How the data were processed

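Biotinylated cRNA from 6 samples was hybridised to Illumina mouse arrays. For each probe and array the authors deposited a signal, which is a linear intensity, and a detection p-value, per the file headers. GenomeStudio 2011.1 is listed by the submitters' processing notes with no role. The authors' deposited table of processed intensity, scaled to nearly equal array means and floored at 1, served as an alternative only, and its normalization was not given in the sources used here.

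Background was removed in limma 3.58.1 (R 4.3.3) by normexp, which took the background from the detection p-values and added an offset of 16. Quantile normalization and log2 followed. Probes above background (detection p-value under 0.05) on 3 or more arrays were kept, 13064 of 25697 (50.8%). They were tested with lmFit and eBayes (4 residual, 3.30 prior degrees of freedom). P-values were adjusted by Benjamini-Hochberg over all tested probes with a threshold of 0.05. The fit was first run on simulated data with independent noise and no replicate shift. That simulation therefore cannot show how the fit behaves under the replicate 3 shift of the real arrays. Differences are Tip5-shRNA minus control-shRNA, and SE is moderated. The brightest tested probe stands for its gene, and no level was compared between probes. The platform annotation gave 1 symbol for 23978 probes and none for 1719, and 23962 matched RefSeq genes of GRCm38.p6. Between 48.5% and 52.3% of probes were above background per array, and 3 arrays per group limit the precision.

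Replicate numbers come from the titles. Deviations from the group means correlated at 0.44, 0.53 and 0.70 between same-numbered arrays, so the numbers were taken as pairs. Tip5-shRNA replicate 2 correlated at 0.47 with control replicate 1 and Tip5-shRNA replicate 1 at 0.37 with control replicate 2, so the pairing mostly sets replicate 3 apart and hardly tells replicates 1 and 2 from each other. A fit with the number as a block is printed beside the results it bears on.

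The members, the gene lists, the markers and the rule for named genes were chosen with earlier results of these data known. The rule names Baz2a, the 8 members highest and the 8 lowest by difference, a set of well known members, and the extremes of each list. Members given beyond it complete their class. Alternatives covered background, scaling, filter, test, block, batch, samples and probes.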

Additional observations from a re-analysis of the deposited data

How the results depend on the processing

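The count of members that passed was 0 in 17 of 19 alternatives, in each fit without 1 array among them, and no named member took the opposite sign past its spread. With array weights 4 members (8.51%, beside 9.96% of all genes) passed: Dnajb13 (-1.30, adjusted p 0.0186), Dnajb9 (0.54, 0.0421), Dnajc30 (0.77, 0.0188) and Hspb2 (-0.62, 0.0439). With replicate 3 as a batch 1 (2.13%, beside 4.41%) passed, Dnajc30 (0.70, 0.0476). The replicate block changed no member call, and no scaling moved the median of all genes by more than 0.05. The median over members was 0.035 with median scaling, -0.036 with cyclic loess, 0.0022 with the authors' values and 0.0036 with array weights, and -0.030 to 0.040 without 1 array. Baz2a stayed below control in each of its 18 alternatives (-2.07 to -0.57) and passed with array weights (-1.81, adjusted p 0.0182); without 1 array it was -1.94 to -1.18.

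The count of all genes that passed, 7 in the report (0 higher and 7 lower), moved far more. It was 2 with no background correction, 23 with offset 50 (4 higher, 19 lower), 4 with median scaling, 20 with cyclic loess, 1 with the authors' values, 0 with no filter (1520 at an unadjusted p under 0.05), 4 with the strict filter, 24 with an intensity trend and 26 with the mean of probes. It was 176 with the replicate block (66 higher, 110 lower), 398 with replicate 3 as a batch (168 higher, 230 lower), 428 with replicates 1 and 2 only (162 higher, 266 lower) and 898 with array weights (397 higher, 501 lower). Without 1 array it was 0 to 81: 81 without Tip5-shRNA replicate 3, 32 without control replicate 3, and 0 without any one of the other 4. The cause was not tested. The fits on fewer arrays used values normalized on 6 arrays. Leaving out 1 array turned the sign of 27 members, 25 of them above background on 6 arrays, among them Hspb1 (-1.09 to 0.15) and Hspb8 (-0.47 to 0.23). Dnajb3, Dnajc5b, Dnaja4 and Dnajc28 were above background on fewer arrays.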
